A study of Homo sapiens with 8 samples.

Results

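VLDLR, MYLIP, NPC1, NPC2, STARD3, STARD4, GRAMD1A and TMEM97 are 8 genes of lipoprotein uptake and of cholesterol transport between lysosomes, the plasma membrane and the endoplasmic reticulum (ER). They were chosen by name, for their part in these steps, with earlier results of these data known. Each of the 8 was found once among the 61806 genes of the deposited table. Wild-type N/TERT-1 cells, human epidermal keratinocytes made immortal in culture, were treated with ethanol, the solvent control, or with oligomycin and antimycin A (O/A), and mRNA was sequenced from 4 libraries of each condition, labelled as biological replicates 1 to 4. Oligomycin inhibits the mitochondrial ATP synthase and antimycin A inhibits complex III of the respiratory chain, and together they depolarize mitochondria. The sequenced cells were treated for 4 hours, and O/A stood for 10 µM oligomycin with 4 µM antimycin A in the imaging of the same cell line, whereas the sample labels give neither dose nor time. All 8 libraries came from 1 cell line grown in a serum-free keratinocyte medium with bovine pituitary extract, so no serum was added in either condition.

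Cells take up cholesterol by binding lipoproteins at surface receptors and carrying them to lysosomes, where cholesteryl esters are cleaved. The free cholesterol is handed from the soluble protein NPC2 to the membrane protein NPC1, crosses the lysosomal membrane, and is moved on to other membranes by lipid transfer proteins, among them those with START or GRAM domains. Keratinocytes need large amounts of cholesterol for the epidermal barrier and make much of it themselves. The comparison of O/A with ethanol asks whether the mRNAs of uptake and export changed beside those of cholesterol synthesis when mitochondria were damaged.

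Of the 8 genes, 3 were upregulated in O/A (VLDLR, NPC1 and STARD4), 2 were downregulated (MYLIP and TMEM97) and 3 were not called (NPC2, STARD3 and GRAMD1A). Calls needed an absolute log2(FC) above 0.25 and an adjusted p-value, by the quasi-likelihood test of edgeR, no higher than 0.05. Among all 14893 genes tested, 34.7% were called by this rule, 15.8% upregulated and 18.9% downregulated, so a called gene was common in these data. The libraries of both conditions did not overlap for 7 of the 8 genes, against 47.6% of all genes tested. The median absolute log2(FC) was 0.68 over the 8 genes and 0.20 over all genes tested, and the median signed log2(FC) was 0.14 over the 8 genes. All 8 genes passed the filter of at least 10 counts in at least 4 libraries, but VLDLR passed only because of its counts in O/A, which bears on its place in these counts.

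The 5 genes that changed are shown here with the sequence around their transcription start, because the results turn on them. Each sequence is the RefSeq promoter window of GRCh38.p14, from 250 bases before the start to 50 after it, on the strand of the gene, 5′ to 3′. Capitals mark a GC box (GGGCGG) or a CCAAT box (CCAAT), found on either strand. The windows are VLDLR, chr9:2621537-2621836, plus strand, NPC1, chr18:23586457-23586756, minus strand, STARD4, chr5:111512486-111512785, minus strand, MYLIP, chr6:16128836-16129135, plus strand, TMEM97, chr17:28318950-28319249, plus strand.
VLDLR: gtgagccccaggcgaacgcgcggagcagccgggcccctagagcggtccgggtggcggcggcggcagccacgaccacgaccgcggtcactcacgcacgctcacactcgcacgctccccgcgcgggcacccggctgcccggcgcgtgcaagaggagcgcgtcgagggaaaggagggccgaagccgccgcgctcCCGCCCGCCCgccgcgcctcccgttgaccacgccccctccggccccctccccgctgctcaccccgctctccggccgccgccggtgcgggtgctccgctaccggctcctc
NPC1: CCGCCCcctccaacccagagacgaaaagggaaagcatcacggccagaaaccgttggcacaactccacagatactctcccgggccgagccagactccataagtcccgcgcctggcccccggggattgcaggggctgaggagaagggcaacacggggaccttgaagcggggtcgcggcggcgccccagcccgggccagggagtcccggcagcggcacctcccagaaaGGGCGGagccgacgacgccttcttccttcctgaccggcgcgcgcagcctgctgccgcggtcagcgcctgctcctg
STARD4: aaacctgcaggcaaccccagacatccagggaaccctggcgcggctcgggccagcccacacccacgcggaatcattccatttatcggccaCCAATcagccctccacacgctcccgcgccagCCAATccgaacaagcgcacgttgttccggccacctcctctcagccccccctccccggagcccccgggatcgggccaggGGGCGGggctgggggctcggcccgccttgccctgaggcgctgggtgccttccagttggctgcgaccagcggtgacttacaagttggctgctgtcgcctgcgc
MYLIP: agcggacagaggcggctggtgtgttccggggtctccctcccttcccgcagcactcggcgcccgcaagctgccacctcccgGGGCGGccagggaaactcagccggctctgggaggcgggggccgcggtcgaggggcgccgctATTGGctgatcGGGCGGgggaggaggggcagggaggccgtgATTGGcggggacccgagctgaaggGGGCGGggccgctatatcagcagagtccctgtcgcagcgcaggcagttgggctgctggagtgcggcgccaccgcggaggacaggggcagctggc
TMEM97: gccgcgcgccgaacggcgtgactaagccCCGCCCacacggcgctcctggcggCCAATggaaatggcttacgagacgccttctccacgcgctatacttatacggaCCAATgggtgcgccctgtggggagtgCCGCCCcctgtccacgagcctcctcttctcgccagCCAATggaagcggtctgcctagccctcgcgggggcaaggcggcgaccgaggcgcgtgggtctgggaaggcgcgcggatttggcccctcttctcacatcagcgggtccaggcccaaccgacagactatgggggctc

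In these windows VLDLR had 2 overlapping GC boxes and no CCAAT box, and NPC1 had 2 GC boxes and no CCAAT box. STARD4 had 2 CCAAT boxes, which began 161 and 130 bases before the start, and 1 GC box. MYLIP had 2 CCAAT boxes and 3 GC boxes. TMEM97 had 3 CCAAT boxes, which began 198, 146 and 85 bases before the start, and 2 GC boxes. CCAAT boxes therefore stood in a window of an upregulated gene and of both downregulated genes. Of all 35116 RefSeq windows, 34.6% held a CCAAT box and 45.0% a GC box, so neither was rare. The letters of a sterol regulatory element core (TCACNCCAC, in 1.13% of all windows), of an E-box (CACGTG, in 7.26%) and of a C/EBP-ATF response element (TGATGNAAT, in 0.991%) were found in no window of the 8 genes on either strand, which says only that these letters are not in these windows. The windows held 67.7% to 79.0% G and C for the 5 genes, lowest for TMEM97 and highest for VLDLR.

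VLDLR encodes the very low density lipoprotein receptor, which binds lipoproteins rich in apolipoprotein E and carries them into the cell. The gene (ENSG00000147852) lies on chromosome 9 of GRCh38 from 2621182 to 2660056 on the plus strand, and its canonical transcript has 19 exons. VLDLR had 6, 10, 6 and 10 counts in ethanol replicates 1 to 4 and 52, 51, 76 and 57 counts in O/A replicates 1 to 4. Every O/A library thus lay far above every ethanol library, and the lowest O/A count was above 5 times the highest ethanol count. Scaled by edgeR's TMM method to CPM, that is, to counts in libraries of a common size, its level was 0.424 ± 0.112 CPM in ethanol and 3.26 ± 0.553 CPM in O/A (SD, n = 4 libraries each). The log2(FC) of VLDLR was 2.92 (standard error 0.24, 95% interval 2.43 to 3.41, edgeR adjusted p = 6.72e-15), a 7.57-fold rise. VLDLR passed the count filter only through the O/A libraries, where it was high, so its p-value is not independent support for the rise. The level was low in both conditions, at 0.193 FPKM in O/A, and on log2(FPKM + 1) the log2(FC) was 0.22, inside the threshold, whereas it was 1.22 on log2(FPKM + 0.1).

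MYLIP encodes an E3 ubiquitin ligase, also called IDOL, which marks VLDLR and related receptors for breakdown in lysosomes, and whose transcription is driven by the sterol-sensing LXR receptors. The gene (ENSG00000007944) lies on chromosome 6 from 16129086 to 16148248 on the plus strand and has 7 exons in its canonical transcript. MYLIP had 84, 94, 80 and 82 counts in ethanol replicates 1 to 4 and 49, 47, 45 and 34 counts in O/A replicates 1 to 4. The counts of all O/A libraries were below those of all ethanol libraries, and the lowest was that of O/A replicate 4. The level fell from 4.55 ± 0.579 to 2.42 ± 0.361 CPM (SD, n = 4). The log2(FC) of MYLIP was -0.90 (standard error 0.15, 95% interval -1.21 to -0.60, edgeR adjusted p = 1.37e-06), so that O/A held 46.5% less. On log2(FPKM + 1) the log2(FC) was -0.50, still past the threshold.

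The receptor and its ligase moved in opposite directions. Within each library, the log2 ratio of VLDLR to MYLIP CPM was -3.81, -3.23, -3.74 and -3.04 in ethanol replicates 1 to 4 and 0.09, 0.12, 0.76 and 0.75 in O/A replicates 1 to 4. Reads of the ligase thus outnumbered those of the receptor in all ethanol libraries, and the reverse held in all O/A libraries. CPM are not scaled by gene length, and VLDLR has 16507 exonic bases against 3072 for MYLIP. In FPKM, which are scaled by length, the log2 ratio was still negative in O/A replicates 1 to 4 (-2.32, -2.34, -1.66 and -1.71). By length-scaled level the receptor thus stayed below the ligase in both conditions. The CPM ratio differed by 3.88 on the log2 scale (exact two-sided permutation test, p = 0.0286, and also 0.0286 after adjustment over 3 ratios). This p-value is as low as 4 against 4 libraries can give. It was fixed in advance, because VLDLR lay higher and MYLIP lower in every O/A library, and it adds no support.

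NPC1 encodes the sterol-binding protein of the lysosomal membrane that exports cholesterol, and loss of it causes Niemann-Pick disease type C. The gene (ENSG00000141458) lies on chromosome 18 from 23506184 to 23586506 on the minus strand, with 25 exons in its canonical transcript. NPC1 had 2502, 2494, 2427 and 2924 counts in ethanol replicates 1 to 4 and 4729, 4930, 5095 and 4613 counts in O/A replicates 1 to 4. After scaling, the libraries were tightly grouped in each condition and far apart between them, at 138 ± 2.13 CPM in ethanol and 268 ± 3.31 CPM in O/A (SD, n = 4). The log2(FC) was 0.96 (standard error 0.028, 95% interval 0.91 to 1.02, edgeR adjusted p = 1.71e-33), a 1.95-fold rise. NPC1 shares 619 exonic bases, 6.38% of its own, with RMC1 on the opposite strand, which had between 420 and 523 counts in ethanol, against 641 to 700 with O/A. Whether the counting used strand is not stated, so reads from these shared bases cannot be told apart.

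NPC2 encodes the soluble protein of the lysosomal lumen that passes cholesterol to NPC1. The gene (ENSG00000119655) lies on chromosome 14 from 74476192 to 74494177 on the minus strand, with 5 exons in its canonical transcript. NPC2 had 1959, 1900, 1934 and 2175 counts in ethanol replicates 1 to 4 and 2028, 2087, 2128 and 2042 counts in O/A replicates 1 to 4. The level was 106 ± 3.26 CPM in ethanol and 115 ± 2.59 CPM in O/A (SD, n = 4), a narrow gap without overlap on this scale, whereas the FPKM values of both conditions overlapped. Its log2(FC) was 0.11 (standard error 0.033, 95% interval 0.05 to 0.18, edgeR adjusted p = 0.00275), inside the fold change threshold.

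The 2 proteins act as a pair, but their mRNAs changed by unequal amounts. The log2 ratio of NPC1 to NPC2 CPM within a library was 0.35, 0.39, 0.33 and 0.43 in ethanol replicates 1 to 4 and 1.22, 1.24, 1.26 and 1.18 in O/A replicates 1 to 4. All O/A ratios lay above all ethanol ratios, and the means differed by 0.85 (exact two-sided permutation test, p = 0.0286, the smallest possible, and 0.0286 adjusted over 3 ratios). This p-value was also fixed in advance, by the wide gap of NPC1 and the narrow one of NPC2, and it adds no support.

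**Figure D1:**
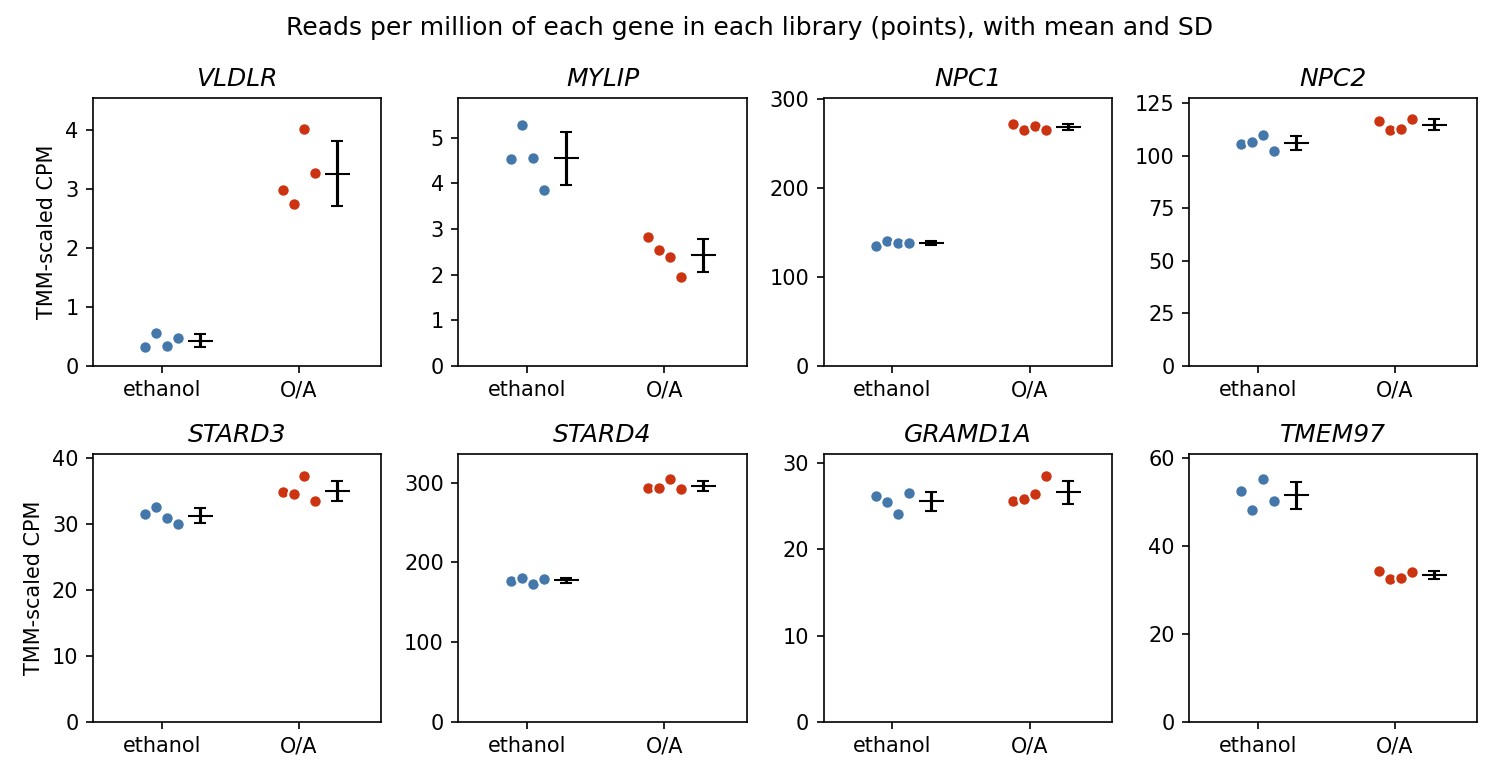
TMM-scaled CPM on the vertical axis, starting at 0, of each of the 8 genes in each of the 4 ethanol (blue) and 4 O/A (red) libraries, with the mean and SD in black. NPC1 and STARD4 show the narrowest groups with a wide gap between them, VLDLR and MYLIP are low with more spread, and only for GRAMD1A do the conditions overlap.

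STARD4 encodes a small soluble START-domain protein that ferries sterol between the plasma membrane, endosomes and the ER. The gene (ENSG00000164211) lies on chromosome 5 from 111496033 to 111512590 on the minus strand, with 6 exons in its canonical transcript. STARD4 had 3276, 3226, 3039 and 3825 counts in ethanol replicates 1 to 4 and 5112, 5447, 5748 and 5074 counts in O/A replicates 1 to 4. Every O/A library was above every ethanol library, and the level rose from 178 ± 3.54 to 296 ± 5.72 CPM (SD, n = 4). Its log2(FC) was 0.74 (standard error 0.027, 95% interval 0.68 to 0.79, edgeR adjusted p = 9.56e-29), a 1.67-fold rise.

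STARD3 encodes a START-domain protein anchored in late endosomes, which tethers them to the ER and moves cholesterol across the contact. The gene (ENSG00000131748) lies on chromosome 17 from 39637090 to 39664201 on the plus strand, with 15 exons in its canonical transcript. STARD3 had 587, 582, 545 and 638 counts in ethanol replicates 1 to 4 and 607, 642, 704 and 585 counts in O/A replicates 1 to 4. The level was 31.3 ± 1.11 CPM in ethanol and 35.1 ± 1.55 CPM in O/A (SD, n = 4), and the highest library was O/A replicate 3. The log2(FC) was 0.17 (standard error 0.051, 95% interval 0.06 to 0.27, edgeR adjusted p = 0.00485), inside the threshold, although the interval reached past it, and the FPKM values of both conditions overlapped.

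Both START-domain genes thus differed in size of change. The log2 ratio of STARD4 to STARD3 CPM within a library was 2.48, 2.47, 2.48 and 2.58 in ethanol replicates 1 to 4 and 3.07, 3.09, 3.03 and 3.12 in O/A replicates 1 to 4. The O/A ratios were all above the ethanol ratios, by 0.57 on average (exact two-sided permutation test, p = 0.0286, the smallest possible, and 0.0286 adjusted over 3 ratios). Here too the p-value was fixed in advance, by the wide gap of STARD4 and the narrow one of STARD3, and adds no support.

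GRAMD1A encodes a sterol transfer protein of the ER, also called Aster-A, which senses accessible cholesterol in the plasma membrane through its GRAM domain and moves it to the ER. The gene (ENSG00000089351) lies on chromosome 19 from 34994784 to 35026471 on the plus strand, with 20 exons in its canonical transcript. GRAMD1A had 486, 455, 422 and 564 counts in ethanol replicates 1 to 4 and 445, 480, 499 and 496 counts in O/A replicates 1 to 4. The conditions overlapped, at 25.6 ± 1.10 CPM in ethanol and 26.6 ± 1.32 CPM in O/A (SD, n = 4). The log2(FC) was 0.05 (standard error 0.057, 95% interval -0.06 to 0.17, edgeR adjusted p = 0.436), so a change above 0.17 or below -0.06 on the log2 scale lies outside its interval.

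TMEM97 encodes the sigma-2 receptor, a membrane protein of the ER and lysosomes that binds NPC1 and is known to lower its level. The gene (ENSG00000109084) lies on chromosome 17 from 28319200 to 28328685 on the plus strand, with 3 exons in its canonical transcript. TMEM97 had 977, 861, 971 and 1068 counts in ethanol replicates 1 to 4 and 596, 604, 618 and 596 counts in O/A replicates 1 to 4. Every O/A library was below every ethanol library, and the level fell from 51.6 ± 3.04 to 33.4 ± 0.947 CPM (SD, n = 4). The log2(FC) was -0.63 (standard error 0.048, 95% interval -0.72 to -0.53, edgeR adjusted p = 2.91e-16), so that O/A held 35.2% less. TMEM97 shares 361 exonic bases, 12.3% of its own, with IFT20 on the opposite strand. IFT20 had between 206 and 292 counts in ethanol, against 287 to 331 with O/A, a rise with a log2(FC) of 0.41 (edgeR adjusted p = 4.99e-06), and its part in the value of TMEM97 was not tested.

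Levels were compared between genes in FPKM, the authors' counts scaled by the exonic length of each gene and the total of the library. That length covers all exons of a gene and can exceed its canonical transcript. It was 2584 bases for NPC2 against 821 in the canonical transcript, and 9705 against 4760 for NPC1. For STARD4 it was 5684 against 4631, and for TMEM97 2929 against 2463. The order below therefore holds for FPKM only, and an order by transcript length was not tested. In ethanol NPC2 had the highest level at 41.7 ± 1.42 FPKM, followed by STARD4 at 31.7 ± 0.574, TMEM97 at 17.9 ± 1.09, NPC1 at 14.4 ± 0.26, STARD3 at 5.43 ± 0.193, GRAMD1A at 4.39 ± 0.175, MYLIP at 1.50 ± 0.192 and VLDLR at 0.025 ± 0.0058 FPKM (SD, n = 4). In O/A the order was STARD4 at 51.2 ± 0.929, NPC2 at 43.7 ± 0.951, NPC1 at 27.2 ± 0.317, TMEM97 at 11.2 ± 0.309, STARD3 at 5.90 ± 0.256, GRAMD1A at 4.43 ± 0.215, MYLIP at 0.773 ± 0.117 and VLDLR at 0.193 ± 0.034 FPKM (SD, n = 4). In both conditions no gene overlapped its neighbour in the order in any library. In FPKM, STARD4 passed NPC2, and NPC1 passed TMEM97, between ethanol and O/A, and both crossings rest on the exonic length used. VLDLR remained the lowest, and its FPKM in ethanol rests on 32 counts over 4 libraries and on values rounded to 2 decimals.

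**Figure D2:**
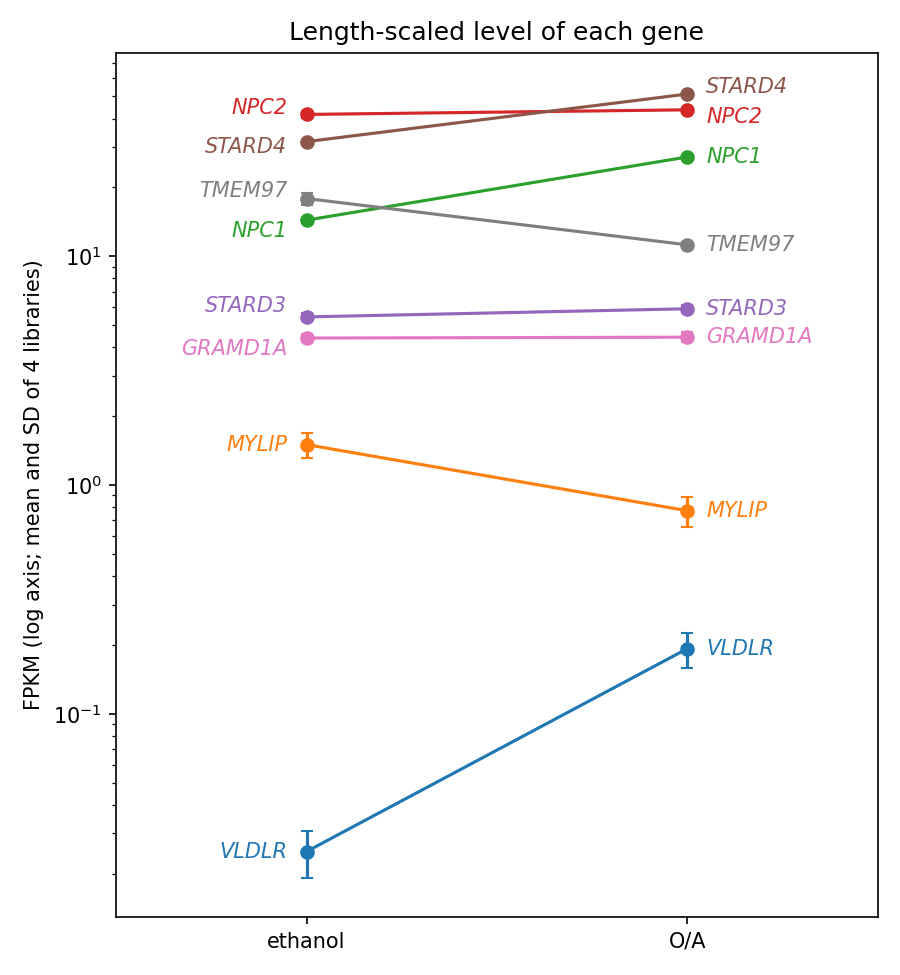
FPKM on a log axis for each of the 8 genes, as mean and SD of 4 libraries in ethanol (left) and O/A (right), joined by a line. The lines of STARD4 and NPC2 cross, as do those of NPC1 and TMEM97, while STARD3 and GRAMD1A stay close to level and VLDLR stays lowest. FPKM are scaled by the exonic length of each gene, and the crossings rest on that length.

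The genes most like VLDLR, which rose most, and MYLIP, which fell most, were sought among 10734 genes with a mean of at least 5 CPM. VLDLR (0.424 CPM in ethanol, 3.26 in O/A) and MYLIP (4.55 and 2.42) themselves lay below this floor, so other genes as low were not compared. The distances to VLDLR also rest on its 6 to 10 counts per ethanol library. Likeness was the Euclidean distance of 8 log2 CPM values after subtraction of their mean, over libraries that differ mainly by treatment. Nearest to VLDLR were IL1RL1 at a distance of 0.26, ADM2 at 0.68 and CTH at 0.70. IL1RL1, a cytokine receptor, had a log2(FC) of 2.95, ADM2 one of 2.75 and CTH, an enzyme of cysteine synthesis, one of 3.15. Nearest to MYLIP were ZNF747 at 0.15, with a log2(FC) of -0.91, PARP9 at 0.38, with a log2(FC) of -0.80, and a gene listed only as ENSG00000286388 at 0.38, with a log2(FC) of -0.74.

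The lists of related genes that follow were chosen with results of these data known, and their counts stand beside the 34.7% of all genes that were called. Among 13 other lipoprotein receptors and their adaptors, 12 were tested, 5 were upregulated, 1 was downregulated and 6 were not called, with a median log2(FC) of 0.13. The largest rises were those of OLR1, a receptor for oxidized lipoproteins, with a log2(FC) of 0.79 (edgeR adjusted p = 4.00e-04) and 19 to 34 counts in ethanol against 45 to 49 in O/A, and of LRP12, at 0.37. SCARB1, the high density lipoprotein receptor, had a log2(FC) of -0.10 and was not called. CD36 had 5 to 11 counts per library and could not be tested.

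Of 19 other START and GRAMD genes, 14 were tested, and 2 were upregulated, 2 were downregulated and 10 were not called, with a median log2(FC) of 0.12. DLC1 (log2(FC) 0.75) and STARD13 (-0.63) both carry a START domain, and GRAMD2B (0.32) and GRAMD2A (-0.74), of which GRAMD2A acts at contacts of the ER with the plasma membrane, also went in opposite directions. GRAMD1B had 0 to 4 counts per library and STAR had 0 to 4, too few to test. GRAMD1C, the other relative of GRAMD1A, had 78 to 123 counts and a log2(FC) of 0.19 (edgeR adjusted p = 0.191).

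Of 15 partners in late endosomes and lysosomes, all were tested, 3 were upregulated, 0 were downregulated and 12 were not called, with a median log2(FC) of 0.19. An adjusted p-value of at most 0.05 alone was reached by 12 of the 15, 10 higher and 2 lower in O/A, against 53.7% of all genes tested, 26.0% higher and 27.7% lower. GPR155, a lysosomal cholesterol sensor, rose with a log2(FC) of 0.99 (edgeR adjusted p = 9.87e-09), on between 50 and 58 counts for ethanol, against 95 to 110 with O/A. MOSPD2, an ER protein that tethers STARD3, rose by 0.73 (edgeR adjusted p = 1.47e-17), whereas VAPA and VAPB, which bind the same motif of STARD3, had a log2(FC) of 0.19 and -0.16 and were not called. RAB9A, a small GTPase of late endosomes, rose by 0.66, and was named after its value was seen as the last of the 3. LIPA, the lysosomal acid lipase that frees cholesterol from its esters, had a log2(FC) of -0.03. Without ethanol replicate 3, 6 of the 15 were called.

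Among 7 relatives and partners of the sigma-2 receptor, 6 were tested and 1 was called. TM6SF1, a membrane protein of the same domain family as TMEM97, had between 2 and 6 counts in ethanol, against 21 to 27 with O/A, with a log2(FC) of 2.61 (standard error 0.35, edgeR adjusted p = 7.37e-09). Like VLDLR, it passed the filter only because of its counts in O/A, and without any 1 of the O/A libraries it was not tested. EBP (log2(FC) -0.04), EBPL (-0.07), PGRMC1 (0.07) and PGRMC2 (-0.14) were not called, and the median of the 6 was -0.06.

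Of 9 genes that act with MYLIP, all were tested, 2 were upregulated, 2 were downregulated and 5 were not called, with a median log2(FC) of -0.0051. NR1H2, which encodes LXR beta, rose (log2(FC) 0.34) and RXRA, its dimer partner, fell (-0.42), while NR1H3, which encodes LXR alpha, had a log2(FC) of -0.05 on 49 to 70 counts. UBE2D1, a ubiquitin-conjugating enzyme that works with MYLIP, rose (0.45). USP2, a deubiquitinase known to act on MYLIP, was called at a log2(FC) of -0.37 (edgeR adjusted p = 0.0348), but the call was lost in 9 of 16 alternatives, DESeq2 among them (adjusted p = 0.0892).

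For reference, 9 of 20 genes of sterol synthesis and sensing were called, 5 upregulated and 4 downregulated, with a median log2(FC) of 0.02. The largest rises were those of INSIG1 (0.81), which retains the sterol sensor in the ER, and MSMO1 (0.81), an enzyme that demethylates sterols. The largest falls were those of HMGCS1 (-0.37), an early enzyme of the mevalonate route, and LSS (-0.35), which closes the sterol rings.

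The libraries held between 17210404 and 20999927 counts for ethanol, and 17689760 to 19263046 with O/A, so depth was similar in both conditions. All 8 keratinocyte markers, from KRT5 to DSG3, were at 1 FPKM or more, with a summed level of 3929 to 4191 FPKM in ethanol and 3533 to 3699 in O/A. Of 16 markers of fibroblasts, melanocytes, endothelial and immune cells, COL1A1 alone reached 1 FPKM, and MLANA and TYR had 0 counts. In such bulk libraries fewer cells of a kind and less RNA per cell cannot be told apart. Libraries of the same condition differed by 1.76 to 5.74 chi-square units per degree of freedom and those of different conditions by 52.9 to 64.0, which leaves no sign of a library deposited more than once.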

How the data were processed

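Polyadenylated RNA of N/TERT cells was sequenced as paired-end reads. HISAT2 2.0.1 was used by the authors for alignment to GRCh38.p13 and HTSeq 0.6.1 for counting on Ensembl genes, and the deposited counts are raw. The Ensembl release and the strand setting are not given in the sources used here. The authors also deposited FPKM, which divide the counts by exonic gene size and library total. A deposited table of the authors' DESeq2 comparison, with fold changes and p-values, was not used.

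Genes with 10 or more counts in 4 or more libraries (14893) were tested in R 4.3.3 by the robust quasi-likelihood method of edgeR 4.0.16 after TMM scaling, with Benjamini-Hochberg adjustment over all of them. Standard errors come from the log2(FC) and the F statistic. Ratios of 2 genes were compared by exact permutation with SciPy. The scripts were tested on simulated data. Gene bounds equalled those of GENCODE for all 8 genes, and exons were taken from there. RefSeq promoter windows were found for all 8 genes, with 2 windows each for NPC2 and GRAMD1A.

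The 8 genes, the 6 lists and the tests were chosen with earlier results of these data known. All 8 genes were named, and from each list at most the 2 largest rises and 2 largest falls among called genes, with a few added for their role after the values were seen. The alternatives were DESeq2 1.42.0, limma 3.58.1 on FPKM, other scalings, no filter, a fit that is not robust, other fold change thresholds, the replicate number as a block and each library left out. Libraries held 17210404 to 20999927 counts, which leaves VLDLR in ethanol imprecise. Some genes of the lists are counted but not reported here by name.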

Additional observations from a re-analysis of the deposited data

How the results depend on the processing

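The directions of all 8 genes held in all 16 alternatives in which each was refitted. The calls held as well, except that VLDLR was inside the threshold on log2(FPKM + 1), at 0.22, where a pseudocount of 1 exceeds its level. Over those alternatives the log2(FC) lay between 0.87 and 0.98 for NPC1, 0.65 and 0.75 for STARD4, -0.67 and -0.59 for TMEM97 and -0.97 and -0.50 for MYLIP. When libraries were left out in turn, 5 of the 8 genes were called each time, and VLDLR lay between 2.81 and 3.07. Without a fold change threshold 7 of the 8 were called, against 53.7% of all genes tested. With an absolute log2(FC) above 1 only 1 was called, VLDLR, against 797 of all 14893 genes tested.

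Over all genes, 7999 were called without a fold change threshold (3868 upregulated) and 797 above 1, and 4945 to 5071 when libraries were left out. Without a fold change threshold 10 of 12 lipoprotein receptors and adaptors and 8 of 14 START and GRAMD genes tested were called. The same held for 12 of 15 genes of late endosomes and lysosomes and 3 of 6 sigma-2 relatives. Over all genes tested this share was 53.7%. Above 1 there were 0 in every list but the sigma-2 relatives. On log2(FPKM + 1) 3 lipoprotein receptors and adaptors were called. When libraries were left out, the counts were 4 to 6 for the receptors, 4 in each fit for the START and GRAMD genes, 3 to 6 for late endosomes and lysosomes, 0 to 1 for the sigma-2 relatives, where TM6SF1 was then not tested, 3 to 4 for the partners of MYLIP and 8 to 10 for sterol synthesis. The cause of the other changes was not tested.

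The differences in log2 ratio lay between 0.83 and 0.87 for NPC1 to NPC2, 0.56 and 0.60 for STARD4 to STARD3 and 3.76 and 4.02 for VLDLR to MYLIP when libraries were left out, and no test was run on these values.

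The deviations of libraries that share a replicate number were at most weakly correlated (0.038, -0.0022, -0.021 and 0.064 for replicates 1 to 4). Ethanol replicates 1 and 4 correlated best with the O/A library of their own number, whereas replicates 2 and 3 did not. The numbers were not taken as pairs in the main fit. A fit with a replicate block called 5160 genes over all genes, and the same 5 of the 8 genes.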

Other observations

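RMC1, whose gene overlaps NPC1 on the opposite strand, encodes a subunit of the complex that activates the late endosomal GTPase Rab7, and was looked at after the values of NPC1 were seen. It had between 420 and 523 counts in ethanol, against 641 to 700 with O/A, with a log2(FC) of 0.59 (standard error 0.055, edgeR adjusted p = 2.06e-13), so both genes of this pair were upregulated. The overlap of exons is 619 bases of 9705 in NPC1. RAB7A itself had a log2(FC) of 0.19 and was not called. ISCA2, an iron-sulfur cluster assembly gene that shares 103 exonic bases with NPC2 on the opposite strand, fell by 0.40 on the log2 scale (edgeR adjusted p = 2.41e-05), whereas NPC2 had a log2(FC) of 0.11.

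In the other partners of late endosomes, LAMP1 (0.11), LAMP2 (0.15) and SCARB2 (0.23), membrane proteins of the lysosome, passed the threshold on the edgeR adjusted p-value (no higher than 0.05) but not that on the log2(FC). ANXA6, which is recruited to late endosomes rich in cholesterol, passed the same threshold in the other direction, with a log2(FC) of -0.21 that was also inside the fold change threshold (edgeR adjusted p = 1.10e-05).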
